A study of Rattus norvegicus with 10 samples.

Results

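The genes described here are the families of the extracellular matrix and of cell adhesion in the lens capsule of the rat. They were taken by name from the table of RNA sequencing: collagens, laminins and agrin, integrins and an integrin-binding protein, Adam, Adamts and Adamtsl proteins, Mmp and Timp genes, fibulins, matricellular proteins, collagen-modifying enzymes, cadherins, protocadherins, nectins and a Cadm gene, and serpins. In all, 43 of the 3334 rows of the table were members, after the collagen I gene Col1a1 had been left out. The rats were male Sprague-Dawley rats of 6 weeks. In the Hypothermia Group (n = 5), isolated lenses stayed for 8 h at 4°C in Hibernate-A, a medium for keeping tissue in the cold, and were rinsed with cold PBS. In the Normal Group (n = 5), the capsules were taken straight after death and saw no medium. Cold, isolation of the lens and the medium therefore cannot be told apart in this comparison. Both capsules of a rat made up 1 sample, and each sample was 1 rat.

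The lens capsule is a thick basement membrane that encloses the lens, with the lens epithelium attached to its inner face. Laminins, collagens and proteoglycans form such a sheet, integrins bind it to the cytoskeleton of the cells, and cadherins and nectins hold neighbouring cells together. Lysyl oxidases and hydroxylases modify collagen chains, metalloproteases cut matrix and membrane proteins, and Timp proteins and serpins inhibit proteases. On the outside, the zonular fibres run from the capsule to the ciliary body, so that dissected capsules can carry tissue from around the lens. In bulk RNA, fewer cells of a type and less RNA per cell cannot be told apart.

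The table is a list selected by outcome, since all 3334 rows had a deposited log2 fold change beyond 0.25 in size. A listed member therefore had to differ between the groups, and the calls below were read only against the calls among all tested rows. The depth known per rat is that of the listed rows, 9026144 to 12415121 counts after hypothermia and 4792595 to 8177803 counts in Normal rats. Of these counts, the members held 47691 to 60241 and 66534 to 86676, respectively. Normalized counts are counts divided by the size factors of the deposited table, 0.744 to 0.980 in the Hypothermia Group and 1.08 to 1.26 in the Normal Group. Added up over the 43 members, they ranged from 61484 to 66488 in cold-kept rats and from 61543 to 74968 in Normal rats, with overlap. Type IV collagens, nidogens, perlecan, syndecans, glypicans, claudins and the small leucine-rich proteoglycans Dcn, Lum, Bgn and Fmod were also searched by name. None of them was among the 43 members, so they were not analysed here. Values by rat are given below in the order of rats 1 to 5 of the group, where the numbers name rats and pair none of them.

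The matrix and adhesion genes moved both ways after hypothermia, with 8 called higher and 10 called lower. Of the 43 members, 40 passed the filter on low counts. At an adjusted p under 0.05 (edgeR's quasi-likelihood test, Benjamini-Hochberg adjustment over 17000 genes), 18 of the 40 were called, against 72.9% of all tested rows. The 8 higher members included Nectin4, Adam23, Col11a2 and Mmp24, where 52.3% of all tested rows were called higher. The 10 lower members included Adamtsl4, Col6a1, Mmp14 and Itga5, where 20.5% of all tested rows were called lower. A log2 fold change above 1 was reached by 2 of the higher members, Adam23 and Nectin4, beside 10.3% of all tested rows. Below -1 were 4 of the called lower members, Tgfbi, Col25a1 and Col6a1 among them, beside 1.89% of all tested rows. Regardless of the call, 28 of the 40 members (70.0%) had a negative log2 fold change, compared with 1169 of all 3222 tested rows (36.3%). The median log2 fold change of the 40 members was -0.49, and that of all tested rows was 0.36. These splits move with the scaling: with TMM factors made from the listed genes, which lower the log2 fold change of the median row by 0.287, 4 members were called higher and 21 lower, beside 639 and 1100 of all 3220 tested rows. With the listed totals as library sizes (median shift -1.23), 0 members were called higher and 35 lower, beside 57 and 2398 of 3223 rows. They also move with single rats: without any one rat, 4 to 7 members were called higher and 4 to 13 lower, with 4 higher without Hypothermia 3, Hypothermia 5 or Normal 4 and 4 lower without Hypothermia 3 or Normal 5. Between 0 and 7 of the lower calls were below -1 in these fits, where no count of all rows below -1 was made. Of all tested rows, the same fits called 1077 to 1721 higher and 300 to 664 lower. Where other calls of members are given below, the list sets the background: 3221 of its 3222 tested rows had an unadjusted p under 0.05, and DESeq2 with the same size factors called 1959 of 3334 rows higher and 979 lower.

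**Figure D1:**
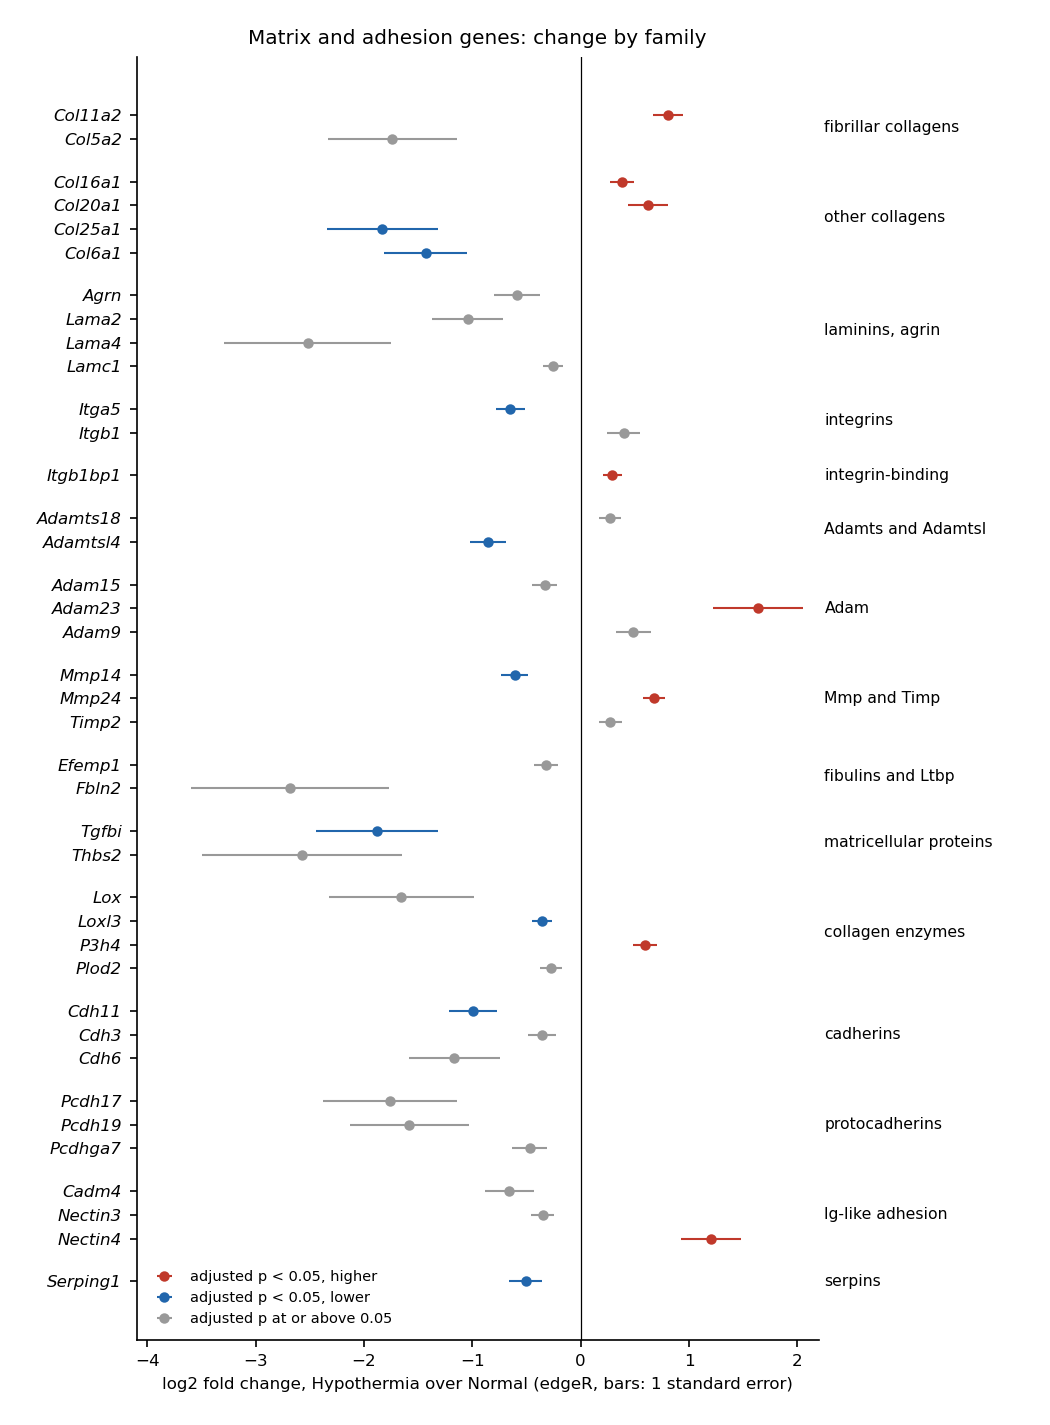
Change of 39 of the 40 tested matrix and adhesion genes by family. Points are edgeR log2 fold changes of the Hypothermia Group over the Normal Group (x axis, 5 rats a group), bars are 1 standard error, and colour gives the call at an adjusted p under 0.05. The laminins and agrin, the cadherins and the protocadherins all lie left of 0, and Fbln2, at -2.68, lies farthest to the left of those drawn.

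The members differed widely in level. On the scale of FPKM, which is per length, 17 members had a mean above 10 over both groups, and 1 of them, Fbln2, had a log2 fold change beyond 1 in either direction. Among the 16 members with a mean FPKM above 1 and up to 10, 7 were beyond 1, and among the 10 with up to 1, again 7, where 3 had no fitted value. Efemp1, Timp2, Adamts18 and Itgb1 had the highest FPKM of all members. None of those 4 was called by edgeR, each had an unadjusted p under 0.05, and DESeq2 with the same size factors called all of them but Itgb1, beside 2938 of all 3334 rows.

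**Figure D2:**
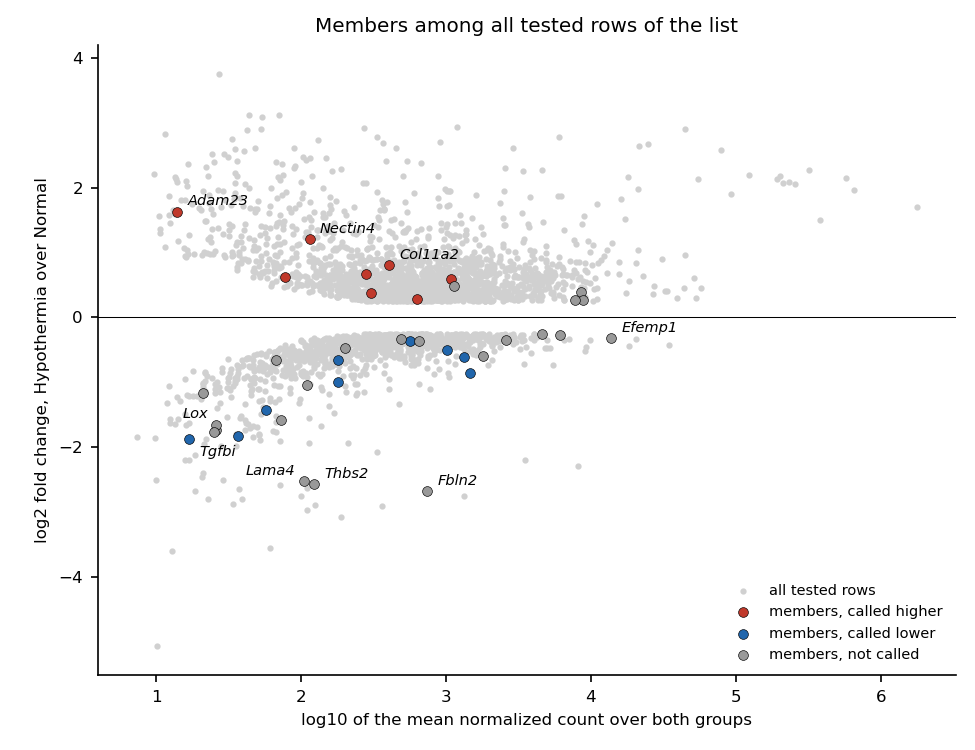
Members among all 3222 tested rows. The x axis is the log10 of the mean normalized count over both groups and the y axis the log2 fold change of the Hypothermia Group over the Normal Group, with all rows in grey and 39 of the 40 tested members coloured by call. The empty band around 0 is the selection of the list, and the named members with the lowest values, such as Fbln2, Thbs2 and Lama4, lie below -2.

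The 250 bases before the start are shown for the called members with the highest and the lowest log2 fold changes among those with a promoter entry in RefSeq, which held 32 of the 43 members (assembly GRCr8, on which the coordinates of this paragraph are given). The sequence of Nectin4 lies at chr13:86335378-86335627 on the plus strand, that of Col11a2 at chr20:4817649-4817898 on the minus strand, that of Tgfbi at chr17:7990114-7990363 on the minus strand and that of Col6a1 at chr20:11905440-11905689 on the plus strand. Capitals mark GGGCGG (a GC box) or TGANTCA (an AP-1-like motif), searched on both strands.
Nectin4: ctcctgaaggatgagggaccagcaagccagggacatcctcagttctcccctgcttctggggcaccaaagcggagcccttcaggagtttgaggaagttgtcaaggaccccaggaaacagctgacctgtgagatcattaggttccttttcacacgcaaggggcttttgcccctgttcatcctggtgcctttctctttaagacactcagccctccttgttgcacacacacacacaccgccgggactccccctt
Col11a2: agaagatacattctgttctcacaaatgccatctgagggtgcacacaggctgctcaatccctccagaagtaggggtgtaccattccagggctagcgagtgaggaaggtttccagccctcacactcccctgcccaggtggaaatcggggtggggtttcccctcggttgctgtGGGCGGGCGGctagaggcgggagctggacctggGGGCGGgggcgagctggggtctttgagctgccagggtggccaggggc
Tgfbi: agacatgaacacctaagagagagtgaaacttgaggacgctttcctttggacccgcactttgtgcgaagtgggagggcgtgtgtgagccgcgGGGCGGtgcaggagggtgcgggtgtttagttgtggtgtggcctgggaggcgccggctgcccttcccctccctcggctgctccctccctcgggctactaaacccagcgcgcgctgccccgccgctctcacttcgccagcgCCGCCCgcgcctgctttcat
Col6a1: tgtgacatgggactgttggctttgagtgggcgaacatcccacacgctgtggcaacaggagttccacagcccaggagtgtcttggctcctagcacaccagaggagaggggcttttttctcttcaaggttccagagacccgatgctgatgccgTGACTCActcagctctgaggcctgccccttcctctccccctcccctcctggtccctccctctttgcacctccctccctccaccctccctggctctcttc
Col11a2 held GGGCGG at 80 to 75, 76 to 71 and 47 to 42 bases before the start, where the first pair of matches overlap. In Tgfbi it stood at 159 to 154 bases and, on the other strand, at 20 to 15 bases. TGANTCA stood in Col6a1 at 99 to 93 bases. Nectin4 held neither. Of the 32 member sequences, 20 held GGGCGG (62.5%), beside 30.5% of all 33469 promoter entries, and TGANTCA was in 2 (6.25%), beside 6.34%. The heat shock element core GAANNTTC was in 2 members (6.25%) beside 7.23%, and TATAAA was in 2 (6.25%) beside 12.9%. Such a match is a description of letters in this window.

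The listed collagens were split in direction, with Col11a2, Col16a1 and Col20a1 higher and Col25a1 and Col6a1 lower. Col11a2 (Rnor_6.0, chr20:3830164-3859018) encodes a chain of the minor fibrillar collagen XI. Its normalized counts were 594, 465, 522, 379.7 and 627 in the Hypothermia Group and 287, 300.2, 240.3, 348 and 300.2 in the Normal Group. Each cold-kept rat lay above each rat of the Normal Group. The log2 fold change of Col11a2 was 0.81 (SE 0.14, edgeR adjusted p = 0.00575), and its FPKM was 4.94 ± 0.95 against 2.81 ± 0.366 (SD, n = 5 each). Col5a2, a chain of the fibrillar collagen V, stood at 33.8, 2.09, 5.02, 7.14 and 12.1 against 26.8, 22.1, 75.6, 37.6 and 36.6. One cold-kept rat lay within the range of the Normal Group, and the gene was not called (log2 fold change -1.74, SE 0.60, edgeR adjusted p = 0.0803). Without that rat, Hypothermia 1, Col5a2 was called lower (log2 fold change -2.605, edgeR adjusted p = 0.0155), the 1 call in 10 fits without 1 rat.

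Col20a1 and Col16a1 encode collagens that associate with fibrils. For Col20a1 (chr3:176494768-176526018) the normalized counts were 76.0, 101, 84.1, 110.2 and 95.4 after hypothermia and 53.6, 71.2, 58.1, 74.4 and 46.7 in the Normal Group. The groups did not overlap, though by a small margin (log2 fold change 0.62, SE 0.18, edgeR adjusted p = 0.0445). Leaving out 1 rat at a time, the call of Col20a1 held in 1 of 10 fits, and the adjusted p was highest, 0.116, without Hypothermia 4. For Col16a1 (chr5:148257642-148311645) they were 383, 289, 379, 306 and 361 against 272, 297, 282, 238 and 227. The lowest cold-kept rat lay below the highest rat of the Normal Group (log2 fold change 0.38, SE 0.11, edgeR adjusted p = 0.0388). That call held in 3 of the 10 fits, with adjusted p up to 0.0995, without Normal 4. Neither Col16a1 (adjusted p = 1.0) nor Col20a1 (0.801) was called under TMM.

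Col6a1 encodes a chain of collagen VI, a beaded filament collagen found near basement membranes. Normalized counts of Col6a1 (chr20:12658065-12675561) were 60.3, 27.2, 15.1, 20.4 and 33.6 in the Hypothermia Group and 59.2, 54.8, 72.4, 95.2 and 140.0 in the Normal Group. Hypothermia 1 reached the level of the lower Normal rats, and Normal 4 and 5 were the highest. The gene fell (log2 fold change -1.43, SE 0.38, edgeR adjusted p = 0.0286), with the call held in 4 of 10 fits without 1 rat and an adjusted p of 0.0755 without Normal 5. Col25a1 (chr2:235596123-235715057), a collagen that spans the membrane, had 32.6, 13.6, 7.53, 11.2 and 16.1 against 31.4, 22.1, 39.0, 99.2 and 97.0. Again Normal 4 and 5 were far above the rest (log2 fold change -1.83, SE 0.51, edgeR adjusted p = 0.0346). Its call was kept in 4 of 10 fits, and the adjusted p came to 0.0920 without Normal 4. Col13a1, the other listed membrane collagen, was below the filter at 2.13 ± 1.95 against 13.3 ± 11.7 (SD, n = 5 each), a mean difference of -1.96 in log2(normalized count + 1) (exact permutation test over 252 assignments, two-sided, unadjusted p = 0.0397, in a list of rows selected for a change). Fitted without the filter and adjusted like the other members, Col13a1 was not called by edgeR (adjusted p = 0.0655), and DESeq2 with the same size factors gave an adjusted p of 0.0308.

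All 4 laminin and agrin genes had negative log2 fold changes, and none was called by edgeR with all rats in the fit. Without Normal 3, edgeR called Agrn (adjusted p = 0.0437), Lama2 (0.0499) and Lama4 (0.0461) lower, beside 412 of 3238 rows. Without Hypothermia 1 it called Lama4 (log2 fold change -3.28, adjusted p = 0.0307), and without Normal 2 it called Lama2 (adjusted p = 0.037). Each of the 4 had an unadjusted p under 0.05, as did 3221 of all 3222 tested rows. DESeq2 with the same size factors, which called 2938 of all 3334 rows, and edgeR with TMM factors, which called 1100 of 3220 rows lower, called all 4 lower. Lama4 (chr20:44060731-44209614) encodes a laminin alpha chain found in vessel walls. Normalized counts of Lama4 were 82.0, 12.5, 5.02, 9.19 and 48.4 after hypothermia and 125, 73.6, 58.1, 313 and 322 in the Normal Group. Hypothermia 1 lay among the lower Normal rats, and Normal 4 and 5 were well above the other 3 (log2 fold change -2.52, SE 0.77, edgeR adjusted p = 0.0552). Lama2, the alpha chain of the muscle laminin, had 84.4, 69.0, 38.9, 73.5 and 92.7 against 110.1, 85.9, 97.9, 246 and 199.5. Here the groups met at Normal 2 and Hypothermia 5 (log2 fold change -1.04, SE 0.33, edgeR adjusted p = 0.0555). Agrn encodes agrin, a heparan sulfate proteoglycan of basement membranes, with normalized counts of 1363, 1425, 1328, 1326 and 1784 and of 1651, 1778, 1463, 3135 and 2839. Normal 4 and 5 stood apart from the other 8 rats (log2 fold change -0.59, SE 0.21, edgeR adjusted p = 0.0935). Lamc1, the gamma chain shared by most laminins, was the most abundant of the 4 at 42.2 ± 3.44 and 50.6 ± 4.18 FPKM (SD, n = 5 each), with a log2 fold change of -0.26 (SE 0.09, edgeR adjusted p = 0.0892).

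Of the integrins, Itga5 fell and Itgb1 was not called. Itga5 (chr7:144970444-144993652) encodes the alpha chain that pairs with the beta-1 chain into a fibronectin receptor. Normalized counts of Itga5 were 136, 149, 159, 127 and 129 in the Hypothermia Group and 171, 221, 252, 190.3 and 265 in the Normal Group. Each cold-kept rat was below each Normal rat (log2 fold change -0.65, SE 0.14, edgeR adjusted p = 0.0103). The beta-1 chain gene Itgb1, at 11505, 8339, 13029, 7933 and 7877 against 7559, 7745, 6884, 6912 and 7909.6, lay within the Normal range in Hypothermia 5, just above it in Hypothermia 2 and 4 and well above it in Hypothermia 1 and 3. Its log2 fold change was 0.40 (SE 0.15, edgeR adjusted p = 0.126). Itgb1bp1 encodes a cytoplasmic protein that binds the tail of the beta-1 chain and is no integrin itself. It stood at 651, 617, 758, 732 and 716 against 668, 555, 547, 522 and 549, with overlap through Normal 1. The gene was called higher (log2 fold change 0.29, SE 0.09, edgeR adjusted p = 0.0457), in 2 of 10 fits without 1 rat, with an adjusted p of 0.121 without Normal 4, and it was not called under TMM (adjusted p = 1.0). The alpha chain gene Itga9 was below the filter, at 2.51 ± 2.27 against 9.68 ± 5.29 (SD, n = 5 each; exact permutation test, two-sided, unadjusted p = 0.0159). Itga9 was called neither by edgeR without the filter (adjusted p = 0.0791) nor by DESeq2 with the same size factors (adjusted p = 0.0616). DESeq2 with its own size factors, which called 2041 of 3334 rows, called it lower (adjusted p = 0.0243).

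Among proteases and their inhibitors, a pair of membrane-type metalloproteases moved in opposite directions. Mmp14 (chr15:33074441-33083655), which cuts collagen at the cell surface, had normalized counts of 827, 1031, 1099.6, 1265 and 1051 after hypothermia and of 1487, 1279, 1653, 1706 and 1921 in the Normal Group. Mmp24 (chr3:151310598-151355401), another protease anchored in the membrane, had 381, 277, 350.2, 357 and 348 against 231, 236, 215, 204 and 188. Neither gene overlapped between the groups. The log2 fold change was -0.61 for Mmp14 (SE 0.13, edgeR adjusted p = 0.0103) and 0.67 for Mmp24 (SE 0.10, edgeR adjusted p = 0.00459), and both calls held in 10 of 10 fits without 1 rat. In FPKM, Mmp14 stood at 26.0 ± 3.87 against 39.7 ± 5.94 and Mmp24 at 5.07 ± 0.576 against 3.18 ± 0.292 (SD, n = 5 each). With listed totals as library sizes, Mmp24 turned to -0.56 on the log2 scale.

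Timp2 encodes an inhibitor of metalloproteases that also takes part in the activation of Mmp2 by Mmp14. Its level was 309 ± 34.7 FPKM in the Hypothermia Group and 256 ± 24.9 FPKM in the Normal Group (SD, n = 5 each). The groups overlapped, from 7384 to 9967 and from 6524 to 8166 normalized counts, and Timp2 was not called (log2 fold change 0.27, SE 0.11, edgeR adjusted p = 0.143). It turned to -0.02 under TMM. Timp4, another inhibitor, had 14.5, 4.18, 18.8, 8.17 and 12.1 normalized counts after hypothermia and 6.47, 0, 1.59, 4.00 and 1.83 in the Normal Group. At these counts, Hypothermia 2 lay inside the Normal range (mean difference 1.89 in log2(normalized count + 1), exact permutation test, two-sided, unadjusted p = 0.0159). Without the filter, edgeR did not call Timp4 (adjusted p = 0.0671), and the adjusted p of DESeq2 was 0.0353 with the same size factors and 0.124 with its own.

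Adam23 had the highest log2 fold change of the 40 fitted members. Adam23 (chr9:70133969-70290117) encodes a membrane protein of the Adam family that lacks protease activity. The normalized counts of Adam23 were 18.1, 14.6, 32.6, 15.3 and 25.5 after hypothermia and 8.32, 4.09, 4.77, 4.00 and 12.8 in the Normal Group. The lowest cold-kept rat was just above Normal 5 (log2 fold change 1.63, SE 0.41, edgeR adjusted p = 0.0232). The counts were few, and the call held in 5 of 10 fits without 1 rat, the adjusted p being 0.0709 without Hypothermia 3. Adam9, an active sheddase, had 1507, 1237, 1801, 1027 and 1079 against 921, 1066, 840.2, 793 and 1124. Hypothermia 1, 2 and 3 were above all Normal rats and the other 2 were not (log2 fold change 0.49, SE 0.16, edgeR adjusted p = 0.0681). Adam15, the third Adam gene of the list, had 437 ± 54.5 against 549.9 ± 79.5 normalized counts (SD, n = 5 each; log2 fold change -0.33, SE 0.12, edgeR adjusted p = 0.0852).

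Adamtsl4 encodes a secreted glycoprotein without a protease domain that binds fibrillin and is known from inherited dislocation of the lens. Its normalized counts (chr2:197803584-197814808) were 1083, 1131, 1319, 951 and 742 in the Hypothermia Group and 1318, 2186, 1995, 1802 and 2168 in the Normal Group. Apart from Normal 1, which was level with Hypothermia 3, the groups were separate. Adamtsl4 fell (log2 fold change -0.86, SE 0.17, edgeR adjusted p = 0.00844), and the call held in 10 of 10 fits without 1 rat. In FPKM this was 15.1 ± 3.11 against 27.4 ± 5.17 (SD, n = 5 each). Adamts18, a secreted metalloprotease, was among the most abundant members at 183 ± 6.55 and 151 ± 19.1 FPKM (SD, n = 5 each). Normal 3 reached 9747 normalized counts, within the range of 9339 to 10183 of the Hypothermia Group, and the gene was not called (log2 fold change 0.27, SE 0.10, edgeR adjusted p = 0.108). Under TMM its log2 fold change was -0.02.

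The fibulins bind elastic fibres and basement membranes, and neither listed gene was called by edgeR, while both, like nearly all rows of the list, had an unadjusted p under 0.05 and were called by DESeq2 with the same size factors (2938 of 3334 rows), here lower. Efemp1 encodes fibulin-3 and had the highest FPKM of all members, 357 ± 31.6 against 447 ± 46.8 (SD, n = 5 each). Its normalized counts were 10787, 13468, 11609, 13049.9 and 12392 against 13293, 16481, 17351, 14535 and 15004. Only Normal 1 lay within the range of the Hypothermia Group (log2 fold change -0.32, SE 0.11, edgeR adjusted p = 0.0844). Fbln2 (chr4:122835436-122895121) encodes fibulin-2, with 487, 102, 66.5, 62.3 and 282 normalized counts after hypothermia and 1066, 189, 144, 2034 and 2947 in the Normal Group. Normal 2 and 3 were lower than Hypothermia 1 and 5, while Normal 4 and 5 were the highest of all 10 rats. The log2 fold change of Fbln2 was -2.68 with an SE of 0.91 (edgeR adjusted p = 0.0840), and without Normal 4 and 5 it was -1.22 (adjusted p = 1.0).

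Matricellular proteins bind the matrix and cell receptors without forming fibres. Thbs2 (chr1:56653938-56683731), or thrombospondin-2, had normalized counts of 59.1, 31.4, 13.8, 10.2 and 64.5 in the Hypothermia Group and of 107, 32.7, 21.5, 289 and 604 in the Normal Group. Normal 5 alone held more than the other 4 Normal rats together (log2 fold change -2.57, SE 0.92, edgeR adjusted p = 0.103), and without Normal 4 and 5 the log2 fold change was -0.59 (adjusted p = 1.0). Tgfbi (chr17:8400146-8429338), an adhesion protein induced by TGF-beta, had 19.3, 3.14, 6.28, 3.06 and 4.03 against 25.9, 9.82, 21.5, 48.0 and 26.5. Hypothermia 1 was far above the other cold-kept rats and reached the Normal range. Tgfbi was called lower at these few counts (log2 fold change -1.88, SE 0.56, edgeR adjusted p = 0.0459), in 2 of 10 fits without 1 rat and with an adjusted p of 0.127 without Normal 4.

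Of the 4 collagen-modifying enzymes, P3h4 rose and Loxl3 fell. P3h4 (chr10:88318817-88325326) encodes a component of a collagen-modifying complex of the endoplasmic reticulum. The normalized counts were 1505, 1131, 1252, 1114 and 1469.8 after hypothermia and 876, 912, 842, 728 and 925 in the Normal Group, without overlap. P3h4 had a log2 fold change of 0.59 (SE 0.11, edgeR adjusted p = 0.00634) and was called in 10 of 10 fits without 1 rat. Under TMM it had 0.31 and an adjusted p of 0.0617. Loxl3 (chr4:113866804-113883477), a lysyl oxidase that cross-links collagen and elastin, had 432, 555, 479.5, 536 and 484 against 559, 588, 691, 701 and 651. The highest cold-kept rat was just below the lowest Normal rat (log2 fold change -0.36, SE 0.09, edgeR adjusted p = 0.0244, called in 4 of 10 fits without 1 rat, adjusted p = 0.0674 without Normal 4). Lox, the founding member of that family, had 15.7, 7.32, 8.79, 6.12 and 25.5 against 49.0, 21.3, 103, 13.6 and 10.1. In contrast to most lower members, Normal 4 and 5 were the lowest Normal rats for Lox (log2 fold change -1.65, SE 0.67, edgeR adjusted p = 0.163). Plod2, a lysyl hydroxylase of collagen, stood at 91.2 ± 6.32 against 110.5 ± 13.1 FPKM (SD, n = 5 each; log2 fold change -0.28, SE 0.10, edgeR adjusted p = 0.109).

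**Figure D3:**
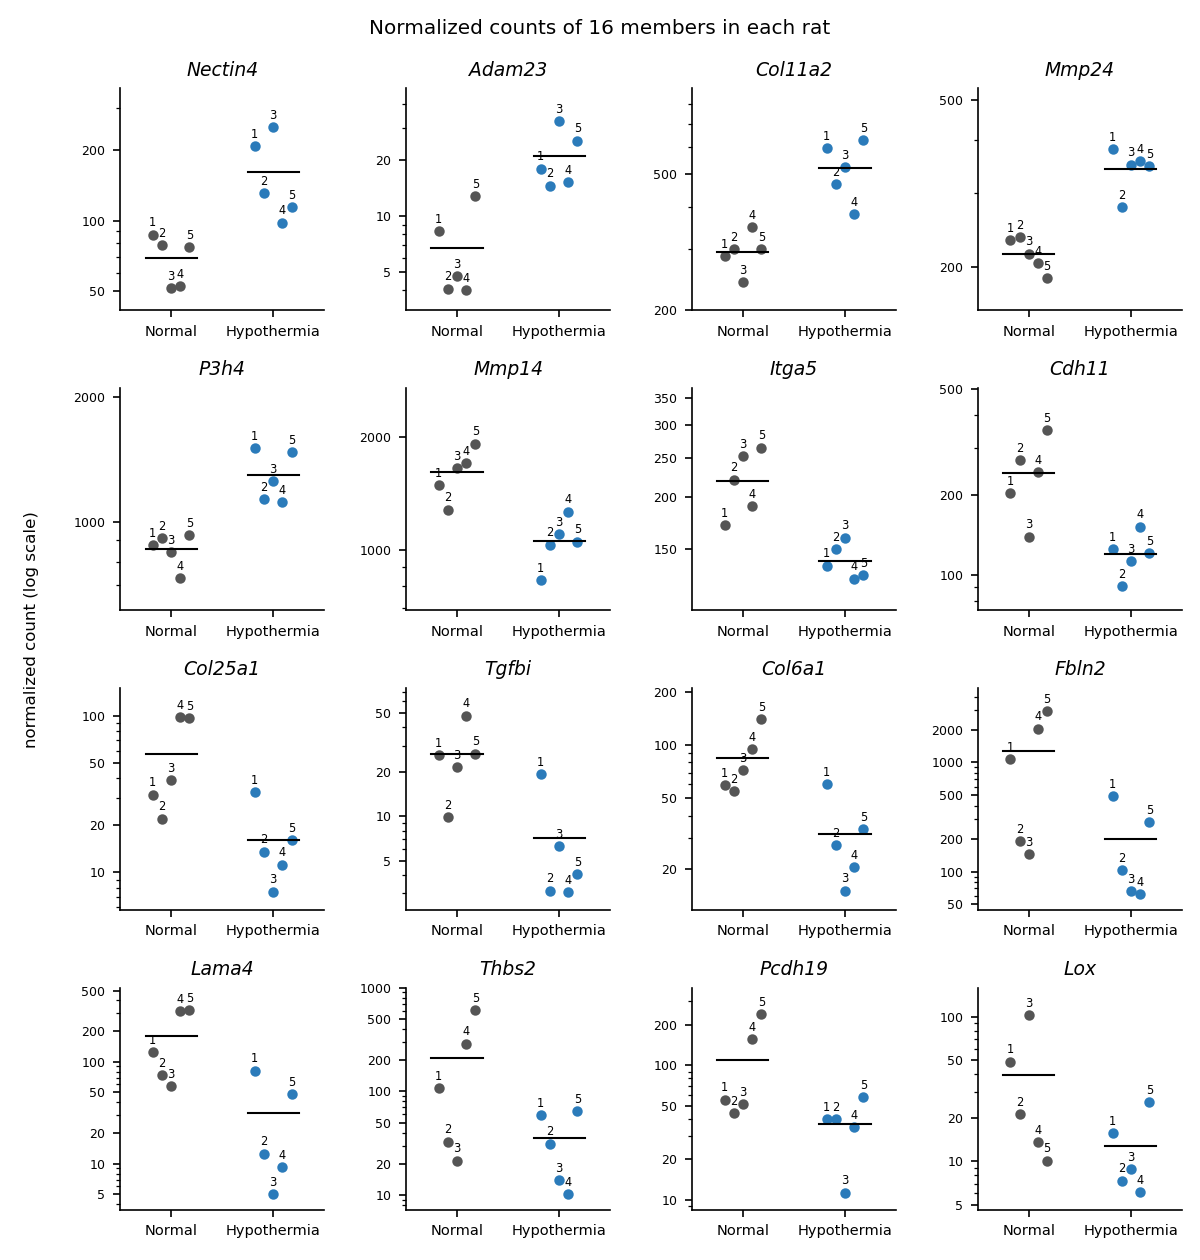
Normalized counts of 16 members in each rat. The y axis is on a log scale, points are single rats labelled with their replicate number, and black lines are group means (5 rats a group). Nectin4, Adam23, Col11a2, Mmp24, P3h4, Mmp14 and Itga5 show no overlap, whereas Fbln2, Lama4, Thbs2 and Pcdh19 overlap and have Normal 4 and 5 at the top.

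The 3 cadherins, which join cells through calcium-dependent contacts, were all lower in mean after hypothermia, and 1 of them was called. Cdh11 (chr19:2393059-2551245), a mesenchymal cadherin, had normalized counts of 125, 91.0, 113, 152 and 121 in the Hypothermia Group and of 203, 269, 139, 244 and 349 in the Normal Group. The overlap came from Normal 3 and Hypothermia 4 (log2 fold change -0.997, SE 0.22, edgeR adjusted p = 0.0135), and the call held in 10 of 10 fits without 1 rat. Cdh3, or P-cadherin, was the most abundant of them at 9.45 ± 1.06 against 12.1 ± 2.2 FPKM (SD, n = 5 each; log2 fold change -0.36, SE 0.13, edgeR adjusted p = 0.0897). Cdh6 had 16.9, 16.7, 8.79, 11.2 and 10.7 against 28.7, 12.3, 15.1, 40.8 and 49.4, with Normal 2 and 3 inside the cold-kept range (log2 fold change -1.17, SE 0.42, edgeR adjusted p = 0.0954).

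Protocadherins are cadherin-related adhesion proteins best known from neurons, and none of the 3 was called by edgeR. All 3 had an unadjusted p under 0.05, as had 3221 of 3222 rows, and DESeq2 with the same size factors, which called 2938 of 3334 rows, called Pcdh17 and Pcdh19 lower. Pcdh19 (chrX:104391607-104493757) had 39.8, 39.7, 11.3, 34.7 and 57.8 normalized counts after hypothermia and 55.5, 44.2, 51.7, 156 and 242 in the Normal Group. Normal 1, 2 and 3 lay within the range of the cold-kept rats, and Normal 4 and 5 did not (log2 fold change -1.58, SE 0.55, edgeR adjusted p = 0.0851). Pcdh17 had 16.9, 9.41, 11.3, 4.08 and 16.1 against 24, 17.2, 8.75, 54.4 and 90.6, again with Normal 4 and 5 on top (log2 fold change -1.76, SE 0.62, edgeR adjusted p = 0.0874). Without these 2 rats the log2 fold changes were -0.46 for Pcdh19 and -0.54 for Pcdh17 (adjusted p = 1.0 each). Pcdhga7 had 168 ± 24 against 232 ± 52.2 (SD, n = 5 each; log2 fold change -0.47, SE 0.16, edgeR adjusted p = 0.0799). It belongs to the gamma cluster, whose genes share their last exons, so that reads may be split between cluster members and its count is uncertain.

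Nectin4 and Nectin3, which are immunoglobulin-like adhesion molecules of adherens junctions, lay on opposite sides. Nectin4 (chr13:89755845-89774378) had normalized counts of 207, 131, 249.8, 98 and 114 in the Hypothermia Group and of 86.9, 78.5, 51.7, 52.8 and 76.9 in the Normal Group. The groups were separate, and Hypothermia 1 and 3 were the highest (log2 fold change 1.20, SE 0.27, edgeR adjusted p = 0.0146). This call held in 10 of 10 fits without 1 rat. Nectin3, the most abundant of the family at 84.6 ± 7.28 against 108 ± 15.3 FPKM (SD, n = 5 each), had 2465, 2385, 1958, 2295 and 2373 against 2695, 2733, 2503, 3165 and 3531. Here the groups were separate too, yet the adjusted p of 0.0502 (edgeR) missed the threshold at a log2 fold change of -0.35 (SE 0.11). Cadm4 had 49.4, 54.4, 47.7, 49.0 and 59.1 against 60.1, 61.4, 67.6, 114 and 107, also without overlap (log2 fold change -0.66, SE 0.23, edgeR adjusted p = 0.0787).

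Serping1 (chr3:72161189-72171078) encodes a serpin, the inhibitor of complement C1. It had 802, 790.3, 826, 713 and 1089.6 against 852, 1106, 1158, 1427 and 1452, with Normal 1 inside the cold-kept range. Its log2 fold change was -0.51 (SE 0.15, edgeR adjusted p = 0.0487, called in 2 of 10 fits without 1 rat, adjusted p = 0.126 without Normal 4).

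The groups overlapped for most members. Of the 43, 11 (25.6%) had every rat of one group above every rat of the other, compared with 57.7% of all 3334 rows. Higher without overlap were Col11a2, Col20a1, Adam23, Mmp24, P3h4 and Nectin4, and lower were Itga5, Mmp14, Loxl3, Cadm4 and Nectin3. The 13 members with a log2 fold change below -1 all overlapped, and 9 of them were not called, namely Fbln2, Thbs2, Lama4, Pcdh17, Col5a2, Lox, Pcdh19, Cdh6 and Lama2. Of all 147 tested rows below -1, 113 overlapped and 86 were not called. Among the 28 members with a negative log2 fold change, the coefficient of variation over the Normal rats had a median of 33.6%. The 12 with a positive value had a median of 12%, and all rows had 13.2%. All 1169 rows with a negative value had 11.9%. Below -1 the median was 72.7% for the 13 members and 53.05% for all 147 rows.

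The spread within the Normal Group followed the same rats in many members. Normal 4 and 5 were the 2 highest of the 10 rats for 17 of 43 members (39.5%) and for 427 of all rows (12.8%). Among those with a negative log2 fold change it was 16 of 28 members (57.1%) and 411 of 1169 rows (35.2%). For the members below -1 this held in 10 of 13 (76.9%), and for all such rows in 83 of 147 (56.5%). Within the Normal Group, Normal 5 was the highest for 21 members and Normal 4 for 9, a split that was not counted over all rows. When both rats were left out together, an alternative chosen after seeing the data, edgeR called 0 members and 0 rows of the whole list at an adjusted p under 0.05, with unadjusted p under 0.05 for 24 of 41 tested members and 2695 of 3254 rows. DESeq2 was not run on those 8 rats. The log2 fold change kept its sign in all 40 members that were also fitted with the 10 rats. Without both rats it was 0.91 for Col11a2 (edgeR adjusted p = 0.0571), 0.62 for Col20a1 and 1.87 for Adam23. For Itga5 it was -0.62 and for Adamtsl4 -0.81. Each of these called members was thus near or beyond its value with 10 rats. In other called members it shrank, to -0.93 for Col25a1 and -0.99 for Col6a1.

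**Figure D4:**
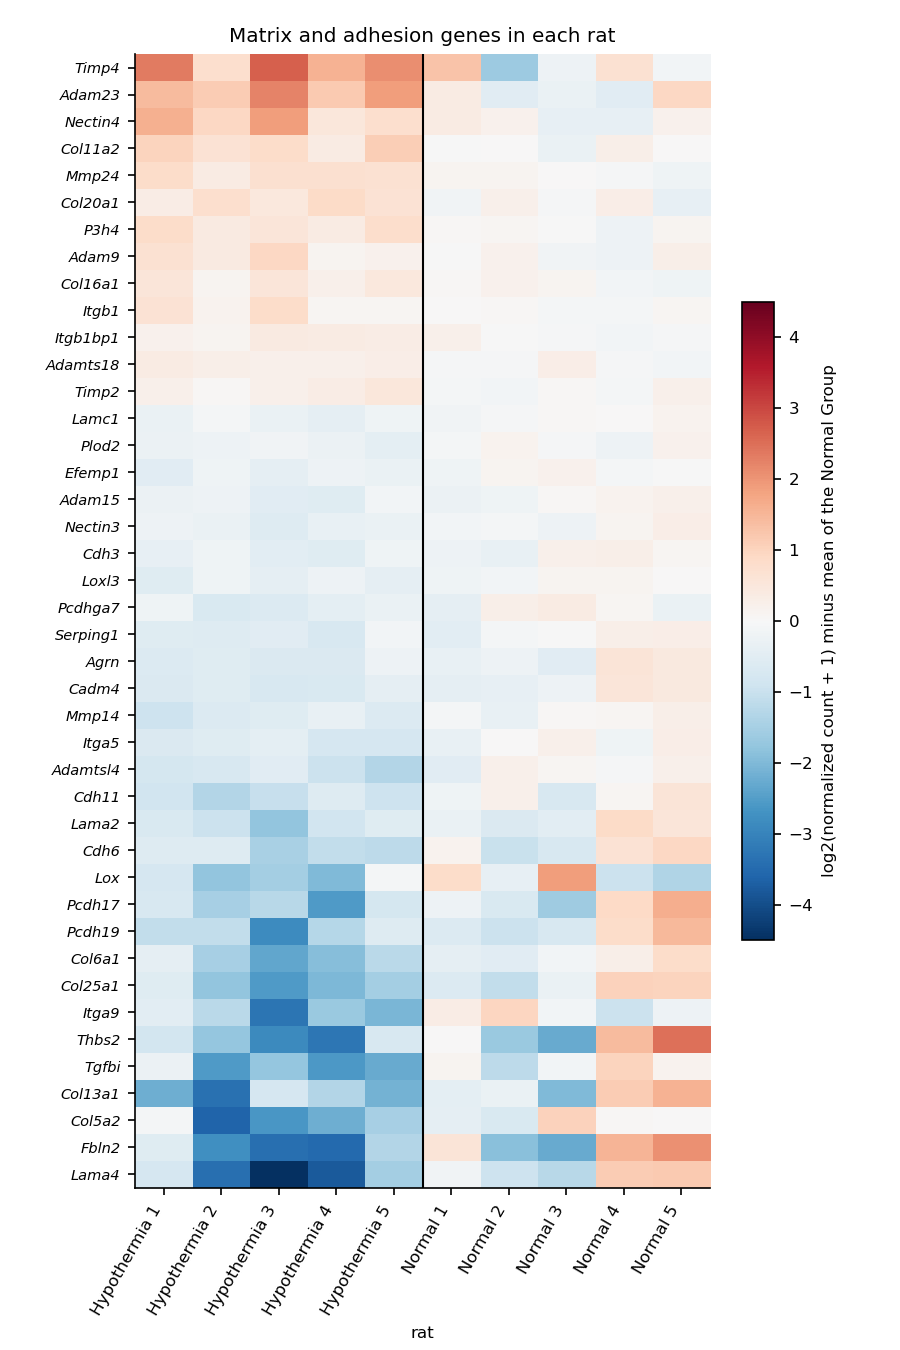
The level of 42 of the 43 members in each rat. Colour is log2(normalized count + 1) minus the gene's mean over the Normal Group, rows are ordered from the highest to the lowest mean difference, and columns are the 5 rats of each group. Below the middle of the map the columns of Normal 4 and 5 are red for most genes, and Lox and Itga9 depart from this.

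Matrix and other tissue genes that are no members were set beside these values. Fibrillin-1 (Fbn1), the main protein of zonular fibres, had normalized counts of 6352, 2570.4, 788, 27614 and 30055 in the Normal Group and of 4762, 2231, 1600.5, 882 and 4329 in the Hypothermia Group. Mfrp, a gene of the ciliary and pigment epithelia, had 439, 164, 86.7, 696 and 1301 against 219, 103, 46.4, 36.7 and 239. Both were highest in Normal 4 and 5, with Normal 1 next, as were Fbln2, Thbs2 and Lama4, and Mfrp was chosen for this pattern after its values were seen. Of the 7 listed markers of the pigment and ciliary epithelium, only Mfrp and Rlbp1 had Normal 4 and 5 as the 2 highest rats. The others went another way: Ttr was at 121, 84.3, 71.6, 47.2 and 28.4 in the Normal Group, lowest in Normal 4 and 5, Tyr and Rpe65 were highest in Normal 1, Myoc in Normal 2, and Pmel in Normal 5 and 1. The collagen I gene Col1a1 was highest in Normal 4 and 3, at 534 and 271, and fibronectin (Fn1) in Normal 3, at 975. Normal 3 was also the highest rat for Lox and Col5a2. The part of tissue from outside the capsule in these members was not tested.

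**Figure D5:**
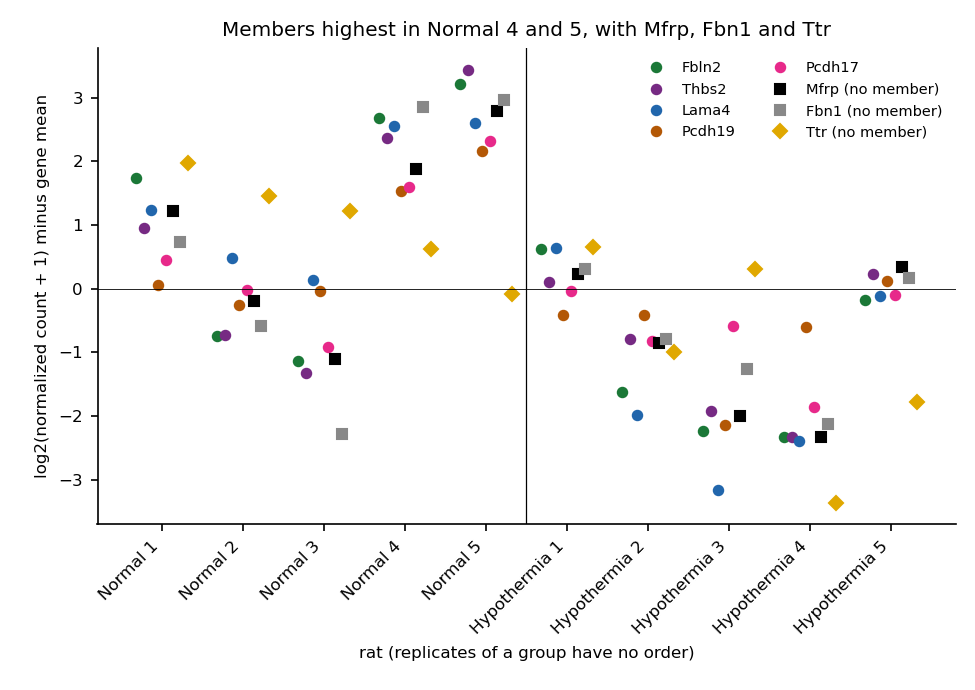
The 5 members Fbln2, Thbs2, Lama4, Pcdh19 and Pcdh17 and 3 genes that are no members, Mfrp and Fbn1 (squares) and Ttr (diamonds), in each rat. The y axis is log2(normalized count + 1) minus the gene's mean over the 10 rats, and each rat has 8 points. The 5 members, Mfrp and Fbn1 were picked because Normal 4 and 5 lie above the other 8 rats, and Ttr, whose points in Normal 4 and 5 are the lowest of the Normal Group, because it does not share this.

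Marker lists of cell types were read in the same table, which holds only changed rows and so gives no makeup of the capsules. Beside the counts below stand the 52.3% of all tested rows called higher and the 20.5% called lower. Lens epithelial markers, which define the labelled tissue, were in the list with 2 of 7 genes, Gja1 and Pax6. Pax6 was called lower (log2 fold change -0.26, SE 0.08, edgeR adjusted p = 0.0498), and the sum of both ranged from 18843 to 23817 normalized counts in cold-kept rats and from 25604 to 32027 in Normal rats. All 13 listed of 15 lens fibre markers were called higher, with summed normalized counts of 2048282 to 4366411 in the Hypothermia Group and 208638 to 1298881 in the Normal Group. Of 14 markers of the pigment and ciliary epithelium, 7 were listed and 1, Pmel, was called lower, with sums of 214 to 458 and of 425 to 1716, respectively. Of the 5 that were tested this is 20.0%. Normal 5, 4 and 1 had the 3 highest sums, at 1716, 1106 and 959, and most of the first 2 was Mfrp. Without Mfrp the sums were 519.8, 366, 338, 410.3 and 416 in Normal 1 to 5, highest in Normal 1, and 162 to 230.3 in cold-kept rats. Of 10 fibroblast and iris stroma markers 2 were listed, and Pdgfrb was called lower (log2 fold change -0.87, SE 0.18, edgeR adjusted p = 0.00965). The sum of both was 416 to 816 after hypothermia and 963 to 1333 in the Normal Group. Of the retinal markers 3 of 13 and of the endothelial and blood markers 2 of 12 were listed, and edgeR called none of these, with unadjusted p under 0.05 for the 3 that were tested, as for 3221 of all 3222 rows. Nefl, a neuronal filament gene, was at 0 in all 5 cold-kept rats. The part of these cells in the members' changes was not tested.

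Partners of the members, taken from lists of the pathway, stood as follows, to be read against the same 52.3% and 20.5% of all tested rows. Of 30 other matrix genes, 7 were listed and 3 were called lower, Fn1 (log2 fold change -3.09, SE 0.80, edgeR adjusted p = 0.0292), Matn2 and Emilin1, and none higher. Of 26 proteins that link integrins and other matrix receptors to the cell, 9 were listed and 5 were called higher, among them Lims2 at 2.42 and the hyaluronan receptor Cd44 at 1.27 on the log2 scale, and none lower. The 5 of 9 (55.6%) is near the share of all tested rows. Ilk, the integrin-linked kinase, was one of these 5 (log2 fold change 0.42, SE 0.08, edgeR adjusted p = 0.00949), and paxillin (Pxn) was another (0.43, SE 0.09, edgeR adjusted p = 0.00965). Under listed totals as library sizes the median row shifts by more than the changes of Ilk and Pxn. Of 18 junction partners, 3 were listed and 1 was called higher, the alpha-catenin gene Ctnna2 (log2 fold change 1.95, SE 0.41, edgeR adjusted p = 0.0125). Of 21 TGF-beta pathway genes, 4 were listed and 1, the repressor Ski, was called lower (log2 fold change -0.38, SE 0.10, edgeR adjusted p = 0.0231).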

How the data were processed

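RNA of lens capsules was sequenced for 10 rats, 5 in each group. The authors aligned paired-end reads with HISAT2 2.0.5 and counted them with featureCounts 1.5.0-p3, and the submitters' processing notes name Rnor_6.0 and DESeq2 1.16.1. Counts were deposited as whole reads per gene, without normalization. The authors also deposited FPKM, which is per gene length and was scaled with their size factors, and mean normalized counts per group, a signal on the scale of counts. The log2 fold change and p-value columns that were deposited are the authors' own comparison, used only to describe how rows were selected (3323 of 3334 rows had an adjusted p under 0.05). Of the rows, 124 have no gene name.

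Size factors came from a least-squares fit of the deposited group means on the counts (largest relative error 9.7e-10). The test was edgeR's quasi-likelihood test (version 4.0.16, R 4.3.3; filterByExpr, glmQLFit with robust = TRUE, glmQLFTest) with these factors and group as the only term, two-sided. Since the table holds selected rows, p-values were adjusted by Benjamini-Hochberg as for 17000 genes. Standard errors are the log2 fold change over the root of the F statistic. Members below the filter were compared by an exact permutation test over 252 assignments (smallest p 0.00794) with a pseudocount of 1. On simulated counts for 3243 genes of this comparison, the test called 90.0% of genes lowered by 1 and 88.0% of genes raised by 1 on the log2 scale, and 8 of 3043 unchanged genes.

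The members, families and gene lists were chosen with earlier results of these data known. In each family, the 3 members with the largest log2 fold change in size and the one with the highest FPKM were named, and others with their values; 1 member is counted but not reported here. Depth was known for listed genes only, and intervals cover neither the selection nor the reads outside the list. Rats were separate animals. The alternatives were other scalings, filters, adjustments, DESeq2 1.42.0, the replicate number as a block, and each rat left out. The block was not a pairing, since equal numbers were different animals. Promoter sequences came from RefSeq (GRCr8). Gene coordinates are those deposited, on Rnor_6.0.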

Additional observations from a re-analysis of the deposited data

Results flagged for a closer look

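Of the 86 groups of 5 values (43 members in each group of rats), 5 had a highest rat whose gap to the next rat took up more of the group's range than Dixon's 95% critical value of 0.71 allows. Chance alone gives about 1 such group in 20. Col5a2 was at 75.6 normalized counts in Normal 3, with a gap of 0.71 of the range (just past the critical value before rounding). Agrn was at 1784 in Hypothermia 5, with a gap of 0.784. Itgb1bp1 was at 668 in Normal 1, with 0.777. Adamts18 was at 9747 in Normal 3, with 0.807. Tgfbi was at 19.3 in Hypothermia 1, with 0.802. Without the rat in question, edgeR's adjusted p was 0.203 for Col5a2, 0.0861 for Agrn, 0.0126 for Itgb1bp1, 0.0396 for Adamts18 and 0.0148 for Tgfbi, so that Adamts18 alone changed sides of the threshold, at a log2 fold change of 0.36.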

How the results depend on the processing

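The counts of called members depended on scaling, adjustment and single rats. Calls past 1 on the log2 scale stand in brackets. Over all tested rows, such calls were counted only for the edgeR test described above, 10.3% above 1 and 1.89% below -1. Of the members, 8 were called higher (2 of them above 1 on the log2 scale) and 10 lower (4 below -1). With TMM factors these were 4 (1) and 21 (8), with median-of-ratios factors 3 (0) and 21 (8), and with listed totals 0 (0) and 35 (28). Of all rows, 639 were called higher and 1100 lower with TMM factors. Median-of-ratios factors gave 611 and 1101, and listed totals 57 and 2398. DESeq2 gave 12 (3) and 24 (12) with the same size factors and 4 (1) and 30 (17) with its own, where of all 3334 rows it called 1959 higher and 979 lower, and 809 and 1232, respectively. Adjusted over the listed genes alone, all 40 tested members passed, as did 3221 of all 3222 rows, 12 (2) higher and 28 (13) lower, and with TMM as well 5 (1) and 28 (15). With TMM and this adjustment, 1040 of all 3220 rows were called higher and 1167 lower. Requiring at least 10 counts in every rat left 30 members, with 7 (1) and 7 (1), beside 1640 and 633 of 3062 rows. At an adjusted p under 0.01 there were 3 (0) and 1 (0), with no count over all rows at that threshold to read them against. Without any one rat, 4 to 7 were called higher (0 to 2 above 1) and 4 to 13 lower (0 to 7 below -1), the fewest lower without Hypothermia 3 or Normal 5. All tested rows moved too, with 1077 to 1721 called higher and 300 to 664 lower. There, 322 were lower without Hypothermia 3 and 340 without Normal 5. Without Normal 4 and 5 together, chosen after seeing the data, 0 (0) and 0 (0) were called, on 8 rats, beside 0 of all 3254 rows. No filter and robust = FALSE moved none of the 4 counts of members by over 1.5 times.

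With the replicate number as a block, 5 (2) and 5 (1) were called, and 943 of all rows in place of 2348. Deviations of same-numbered rats correlated at 0.0391, -0.136, 0.0485, -0.0926 and 0.239, and rats with number 5 alone correlated best with their own number, so the numbers give no pairing.

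Directions turned under 5 scaling settings. With listed totals, the log2 fold change was -0.45 for Col11a2, -0.87 for Col16a1, -0.61 for Col20a1, -0.84 for Itgb1, -0.94 for Itgb1bp1, -0.99 for Adamts18, -0.74 for Adam9, -0.56 for Mmp24, -0.99 for Timp2 and -0.65 for P3h4. Median-of-ratios factors gave -0.019 for Itgb1bp1, -0.040 for Adamts18 and -0.044 for Timp2, and DESeq2's own factors -0.018, -0.040 and -0.044, respectively. TMM gave -0.016 for Adamts18 and -0.020 for Timp2, with either adjustment. These scalings lower the log2 fold change of the median row by 0.287 (TMM), by 0.31 (median of ratios) and by 1.23 (listed totals). Over all member values and settings, 633 kept their direction and side of the threshold, 134 passed it anew, 133 no longer passed it and 20 turned. Low counts limit the 3 members below the filter and the tested members with under 10 counts in some rat. Adam23, Tgfbi, Col25a1, Col5a2 and Lama4 are among the latter.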
